A study of Rattus with 6 samples.

Results

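The genes described here encode the enzymes that attach ubiquitin to proteins and the enzymes that take it off again. They were chosen by gene symbol, with earlier results of these data known. The E1 activating enzymes are those named Uba followed by a single digit, and the E2 conjugating enzymes those named Ube2 followed by a letter. The deubiquitinases are those named Usp, Otub, Otud or Uchl. Of the 12801 genes in the table, 97 had such a symbol, with 6 E1 and 31 E2 enzymes (37 genes) on one side and 60 deubiquitinases on the other, namely 49 Usp, 9 Otub or Otud and 2 Uchl genes. A few products do not do what their symbol says. Usp6nl encodes a GTPase-activating protein, Usp39 a splicing factor, Ube2v2 an E2 variant without the catalytic cysteine, and Usp50, Usp53 and Usp54 are regarded as inactive proteases. RefSeq (assembly GRCr8) has 15 more protein-coding E1 and E2 genes and 11 more deubiquitinases with symbols of this kind, such as Ube2b and Uchl3, which were not analysed here.

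The samples were 6 RNA sequencing libraries of RC-4B/C, a line derived from a rat pituitary adenoma. Of these, 3 libraries came from cells treated with aspirin (acetylsalicylic acid, ASA), which acetylates and blocks the cyclooxygenases, and 3 from control cells given dimethyl sulfoxide (DMSO), the solvent. All comparisons set ASA against DMSO within this line, which all 6 libraries share. The labels give no dose or duration and do not say whether replicates were separate cultures, so p-values measure only the spread between these libraries. The line GH3, which the series design also names, was not analysed here.

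Ubiquitin reaches its target in 3 steps. An E1 enzyme activates it at the cost of ATP, an E2 enzyme receives it as a thioester on a cysteine, and an E3 ligase brings the E2 together with the substrate. The choice of E2 helps to set the type of chain, and with it whether the target is sent to the proteasome, used as a signalling platform or moved between compartments. Deubiquitinases trim or remove chains, recycle ubiquitin at the proteasome and keep selected proteins from being degraded. SUMO, NEDD8, UFM1 and ISG15 are ubiquitin-like proteins with E1 and E2 enzymes of their own, several of which carry the same symbols. Somatic mutations of USP8 are known from human corticotroph adenomas.

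Levels are given as RPKM, the reads of a gene divided by the length of its listed exons in kilobases and by the library's reads in units of 1000000. The libraries held 66492446 to 94486061 reads in the listed exons, and the median over members and libraries was 3546 reads per gene. ASA replicate 2 stood apart from the rest. Its exons scattered within a gene with an SD of 0.74 on the log2 scale, against 0.20 and 0.21 in the other ASA libraries and 0.12 to 0.13 in the DMSO libraries, and for the exons of the members alone the figure was 0.71. Genes were tested with limma on log2(RPKM + 0.1), and 1400 of 12502 (11.2%) passed the threshold of 0.05 after Benjamini-Hochberg adjustment over all of them. Without ASA replicate 3 or DMSO replicate 3 no gene passed, while 1426 and 1222 genes were higher and 1498 and 1120 lower at an unadjusted p under 0.05. Of 7 lactotroph and neuroendocrine markers 1 fell (14.3%, beside 4.99% of all tested genes) and none rose. A negative log2 fold change was found for 4 of them (57.1%, beside 53.5% of all tested genes), with a median of -0.33. The one that fell was the prohormone convertase Pcsk2 (18.8 ± 4.56 RPKM with ASA and 43.5 ± 3.36 with DMSO, SD, n = 3 each, adjusted p = 0.0232). Chga was lower without overlap but did not pass (-0.61, adjusted p = 0.0771), and the lactotroph factor Pou1f1 lay at 725 ± 108 RPKM with ASA and 669 ± 73.8 with DMSO. Of 7 macrophage markers only Cd68 and Cd14 had rows, of 5 fibroblast markers only Dcn and Lum, and no endothelial or folliculostellate marker did. The summed macrophage level was 48.2 to 213 RPKM in ASA and 20.1 to 37 in DMSO libraries, but its genes had opposite signs, with Cd68 29.6-fold higher (adjusted p = 0.0126) and Cd14 at a log2 fold change of -1.41 (adjusted p = 0.165). The summed fibroblast level was 2140 to 3280 in ASA and 1100 to 1160 in DMSO libraries, nearly all of it Dcn (2.49-fold higher, adjusted p = 0.0213), while Lum overlapped between the groups (-0.23). The part of these markers in the results below was not tested. In bulk RNA, fewer cells expressing a gene and less of its RNA per cell cannot be told apart.

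By their medians, the E1 and E2 genes were expressed at higher levels per kilobase than the deubiquitinases. The median E1 or E2 enzyme had 44.3, 53.2 and 48.8 RPKM in ASA replicates 1, 2 and 3 and 58.2, 52.0 and 58.7 in DMSO replicates 1, 2 and 3. The median deubiquitinase had 29.1, 17.9 and 29.1 RPKM in the ASA libraries and 30.7, 27.6 and 28.2 in the DMSO libraries. In every library the E1 and E2 median was the higher of the pair, and the low deubiquitinase median of 17.9 was that of ASA replicate 2. The listed exons also differ in total size, with a median of 600 bases and 6 exons for an E1 or E2 gene. A deubiquitinase had a median of 2412 bases and 13.5 exons. These are sums of listed exons and not sizes of whole transcripts, and the levels per kilobase rest on them. The deubiquitinases took more of the reads, 6420 to 7014 per 1000000 in ASA and 6855 to 7171 in DMSO libraries. The E1 and E2 genes took 2291 to 2526 per 1000000 in ASA and 2788 to 3156 in DMSO libraries, so that every ASA library lay below every DMSO library. This sum leans on Uba1, itself lower with ASA. It had a mean of 76190 reads per library, beside 14534 for Ube2o, the next of the class.

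Uchl1 had the highest level of all members. It encodes a small ubiquitin hydrolase that is abundant in neurons and neuroendocrine cells, and it had 2500, 2020 and 1830 RPKM in ASA replicates 1, 2 and 3 and 2040, 2420 and 2160 in DMSO replicates 1, 2 and 3. The ASA and DMSO values overlapped (log2 fold change -0.07 ± 0.24 SE, adjusted p = 0.863). Among the deubiquitinases Usp22 followed with a mean of 162 over the 6 libraries, then Usp14 with 140, Usp5 with 116 and Usp19 with 95.2. Among the E1 and E2 genes the top was shared by Ube2d3 (276), Uba1 (275) and Ube2m (272), which in DMSO libraries had 255 ± 10.7, 347 ± 39.4 and 309 ± 6.4 RPKM (SD, n = 3). Ube2s (169) and Ube2j1 (150) came next. The lowest levels of the deubiquitinases were those of Usp29 (2.91), Usp50 (1.20), Otud7a (0.402), Usp26 (0.213) and Usp51 (0.121), each with a single listed exon, and the last 3 fell under the filter of a mean of 0.5 RPKM and were not tested. The lowest of the conjugating genes were Ube2ql1 (8.17), Uba2 (6.08) and Ube2q2l (2.56).

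Across the 94 tested members 6 were higher with ASA and 7 were lower. Of the 37 E1 and E2 enzymes 4 fell and 2 rose, which is 10.8% and 5.41% of them, beside 4.99% of all tested genes lower and 6.21% higher. Of the 57 tested deubiquitinases 3 fell and 4 rose, or 5.26% and 7.02%, close to the share of all genes in each direction. Neither share was tested as a list. The log2 fold change was negative for 25 E1 and E2 enzymes (67.6%) and 30 deubiquitinases (52.6%), beside 53.5% of all tested genes. The ASA values lay wholly below the DMSO values for 14 E1 and E2 enzymes (37.8%) and 11 deubiquitinases (19.3%), beside 18.8% of all genes. They lay wholly above for 4 E1 and E2 enzymes (10.8%) and 9 deubiquitinases (15.8%), beside 19.9% of all genes (38.7% in either direction). At an unadjusted p under 0.05, 10 E1 and E2 enzymes were lower and 3 higher (27.0% and 8.11%), and 8 deubiquitinases were lower and 6 higher (14% and 10.5%). The shares of all genes there were 14.6% lower and 15.5% higher.

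**Figure D1:**
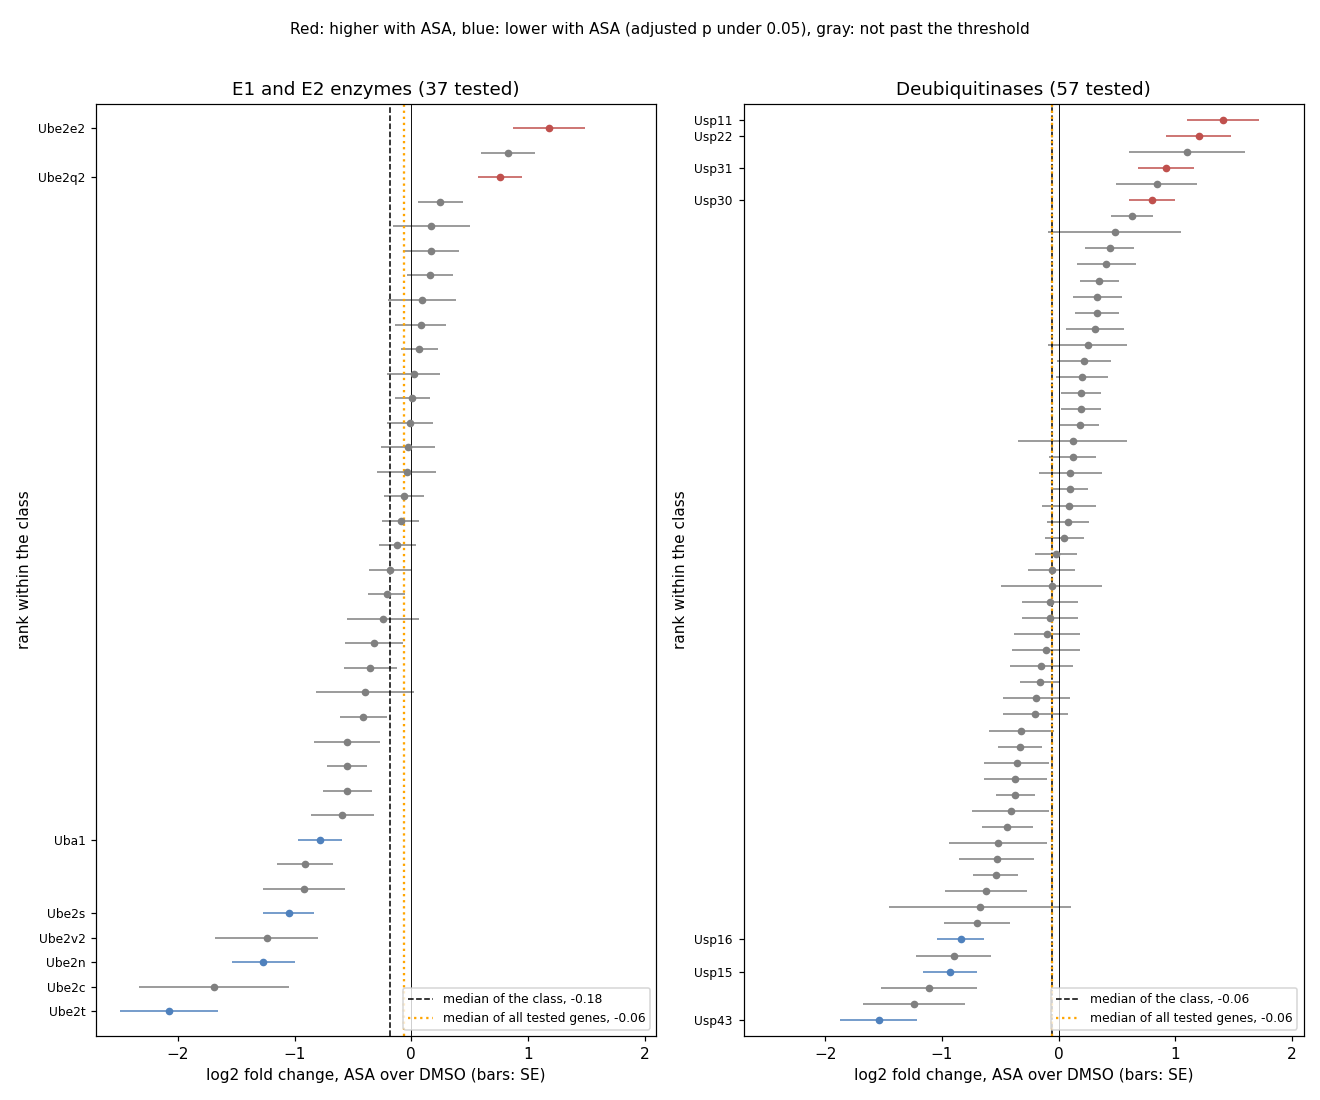
Log2 fold change, ASA over DMSO, of each tested member (points, with bars for the SE from limma), ranked within the 37 E1 and E2 enzymes and the 57 deubiquitinases, with names for the 13 genes past the threshold, Ube2c and Ube2v2. The dashed line is the median of the class (-0.18 for E1 and E2 enzymes, -0.06 for deubiquitinases) and the dotted line the median of all tested genes (-0.06). Most members lie near 0, and the E1 and E2 enzymes reach further down, to -2.08 for Ube2t.

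The difference between the class medians was -0.12, and -0.24 without ASA replicate 2. The median log2 fold change was -0.18 for the E1 and E2 enzymes (quartiles -0.55 and 0.07) and -0.06 for the deubiquitinases (quartiles -0.37 and 0.25), with -0.06 for all tested genes. Relative to the DMSO mean, the E1 and E2 median stood at -0.16, -0.28 and -0.16 in ASA replicates 1, 2 and 3 and at 0.06, -0.03 and 0.01 in DMSO replicates 1, 2 and 3, with no overlap. The deubiquitinase median stood at 0.09, -0.21 and 0.09 in the ASA libraries and at 0.07, -0.05 and -0.01 in the DMSO libraries, with overlap. The median of all tested genes was itself at -0.28 in ASA replicate 2, against 0.08 and 0.06 in ASA replicates 1 and 3. The E1 and E2 median minus that of all genes was therefore -0.25 and -0.22 in ASA replicates 1 and 3 and 0.00 in ASA replicate 2. Without ASA replicate 2 the medians were -0.14 for E1 and E2 enzymes, 0.10 for deubiquitinases and 0.06 for all genes.

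**Figure D2:**
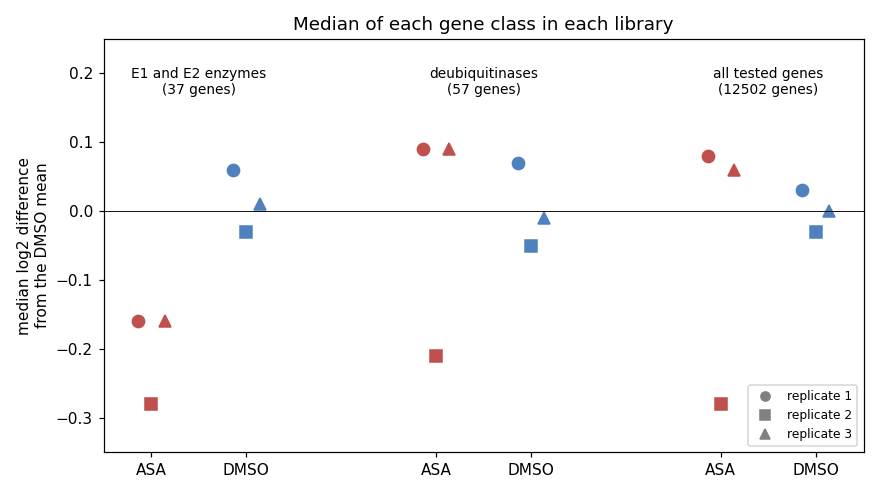
Median log2 difference from the DMSO mean, on log2(RPKM + 0.1), of the 37 E1 and E2 enzymes, the 57 tested deubiquitinases and all 12502 tested genes in each library (1 symbol per library). The E1 and E2 medians of the ASA libraries (-0.28 to -0.16) lie below those of the DMSO libraries (-0.03 to 0.06). ASA replicate 2 is the lowest library in each of the 3 sets.

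Pearson's r between log2 of the listed exon length and the log2 fold change was -0.03 over the 37 E1 and E2 enzymes, 0.03 over the 57 deubiquitinases and 0.04 over 12502 genes (Spearman's rho -0.11, -0.03 and 0.04), all across genes of the same 6 libraries. Among genes with 600 to 1199 bases listed, the 13 E1 and E2 enzymes had a median log2 fold change of -0.32 and the 10 deubiquitinases -0.26, with -0.07 for all 3564 tested genes of that size. Under 600 bases, the 18 E1 and E2 enzymes had a median of -0.11, the same as all 2579 genes there, and the 2 deubiquitinases -0.23. From 1200 to 2399 bases, the medians were -0.05 for 2 E1 and E2 enzymes, 0.11 for 16 deubiquitinases and -0.04 for all 4110 genes. With 2400 bases and over, they were -0.41 for 4 E1 and E2 enzymes, -0.06 for 29 deubiquitinases and -0.04 for all 2249 genes.

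The largest decrease among the tested members was that of Ube2t, and Ube2s, another E2 enzyme with a role around cell division, also fell. Ube2t, which works with the Fanconi anaemia ligase on DNA crosslinks, had 13, 16.5 and 11.7 RPKM in ASA replicates 1, 2 and 3 and 96.5, 29.2 and 67.8 in DMSO replicates 1, 2 and 3. All ASA values lay below all DMSO values, and DMSO replicate 2 was nearest to them. The decrease was 4.22-fold, a log2 fold change of -2.08 ± 0.42 (SE) with an adjusted p of 0.0285. Ube2s, which lengthens chains on the anaphase-promoting complex, had 125, 93.0 and 110 RPKM in ASA libraries and 276, 173 and 236 in DMSO libraries, again without overlap, and was 2.07-fold lower (-1.05 ± 0.22 SE, adjusted p = 0.0322).

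Ube2c, which starts those chains and so triggers the destruction of mitotic cyclins, had 9.77, 31.4 and 11 RPKM in ASA libraries and 89.4, 19.6 and 64.9 in DMSO libraries. Here the groups overlapped, because the value of DMSO replicate 2 was lower than that of ASA replicate 2. The log2 fold change of -1.69 ± 0.64 SE missed the threshold (adjusted p = 0.124). It was -2.22 and passed without ASA replicate 2 (adjusted p = 0.0426), and was -2.34 without DMSO replicate 2 (adjusted p = 0.0562). Markers of dividing cells moved alongside these 3 genes. All 8 of them fell (100%, beside 4.99% of all tested genes). Their summed levels were 127 to 153 RPKM in ASA and 293 to 1080 in DMSO libraries, DMSO replicate 2 being the lowest of its group. Their part in the results for Ube2t, Ube2s and Ube2c was not tested.

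Ube2n and Ube2v2 form the heterodimer that builds the non-degradative chains used in DNA damage tolerance. Ube2n, its catalytic partner, had 20.2, 12 and 12.6 RPKM in ASA libraries and 39.5, 29.3 and 37.6 in DMSO libraries. A 2.41-fold decrease was measured (-1.27 ± 0.27 SE, adjusted p = 0.0315). Ube2v2, the partner without a catalytic cysteine, had 44.0, 12.5 and 34.7 RPKM in ASA and 70.5, 52.0 and 68.7 in DMSO libraries. Both genes thus had every ASA library below every DMSO library, and Ube2v2 (-1.24 ± 0.44 SE) missed the threshold with an adjusted p of 0.109. The ratio of Ube2n to Ube2v2 was 0.459, 0.961 and 0.364 in ASA libraries and 0.547 to 0.562 in DMSO libraries. Rad18, the ligase that acts before this dimer in damage tolerance, averaged 19.3 ± 4.9 RPKM with ASA and 37.6 ± 6.31 with DMSO (adjusted p = 0.0502, SD over 3 libraries each).

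**Figure D3:**
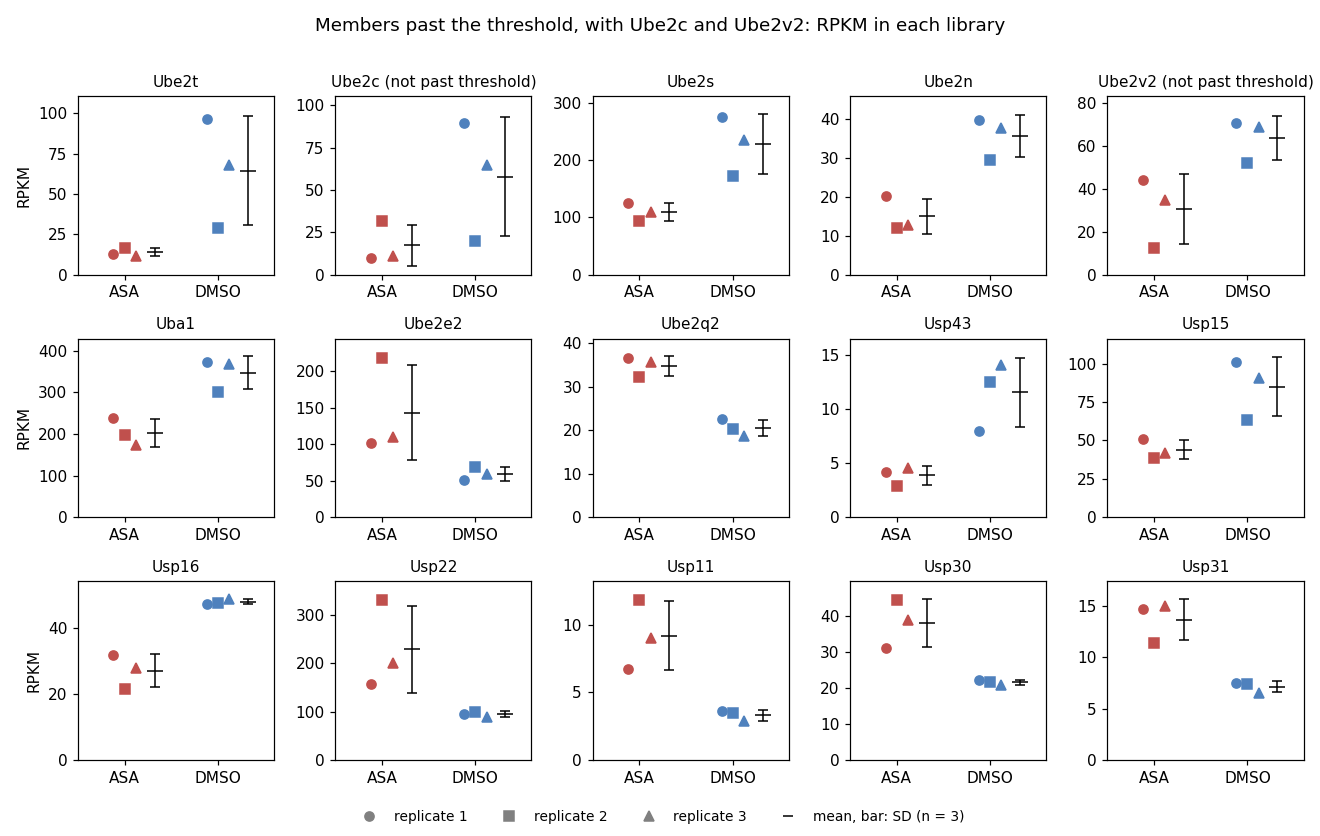
RPKM of the 13 members past the threshold, and of Ube2c and Ube2v2, in the 3 ASA (left, red) and 3 DMSO (right, blue) libraries, with symbols for the replicate and black bars for the mean and SD (n = 3). In the 13 genes the groups do not overlap. In Ube2c the DMSO replicate 2 value of 19.6 lies below the ASA replicate 2 value of 31.4.

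Most E1 enzymes had lower values with ASA, and the main ubiquitin E1 was past the threshold. Uba1, which activates nearly all of the cell's ubiquitin, had 239, 197 and 173 RPKM in ASA libraries and 373, 302 and 367 in DMSO libraries, with no overlap. It was 1.72-fold lower (-0.78 ± 0.19 SE, adjusted p = 0.0435). Uba6, the alternative ubiquitin E1, had 15.5 to 21.8 RPKM in ASA and 15.8 to 18.9 in DMSO libraries (0.08 ± 0.22 SE, adjusted p = 0.839). The E1 subunits for SUMO and NEDD8, Uba2 and Uba3, had log2 fold changes of -0.59 ± 0.27 and -0.55 ± 0.21 SE, with every ASA library below every DMSO library (adjusted p = 0.19 and 0.131). Uba7, the E1 for ISG15, had -0.92 ± 0.35 SE (adjusted p = 0.121). Of the Uba3 and Uba7 values 20.5% and 25% were not whole reads, as were 27.8% of those of Ube2m, 24.2% of Otud5 and 32.1% of Usp19, the 5 members with a share above 20%.

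None of the 4 E2 enzymes for ubiquitin-like proteins passed the limma test, and none had an unadjusted p under 0.05. Ube2m and Ube2f hand NEDD8 to the cullins. Ube2m had 287, 231 and 190 RPKM in ASA and 312, 302 and 314 in DMSO libraries (-0.41 ± 0.20 SE, adjusted p = 0.205), and Ube2f had 45.8 to 65.2 RPKM in ASA and 43.4 to 51.6 in DMSO libraries and a log2 fold change of 0.16 ± 0.20 SE. Ube2l6, the E2 for ISG15, had -0.55 ± 0.28 SE (adjusted p = 0.228). Across the 8 E1 and E2 genes of ubiquitin-like proteins, 6 had a negative log2 fold change and 5 had all ASA libraries below all DMSO libraries, beside 53.5% and 18.8% of all genes.

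Of the 7 members of the Ube2d and Ube2e families, broad-use E2 enzymes that serve many RING ligases, only Ube2e2 passed the threshold. Ube2e2 had 101, 218 and 110 RPKM in ASA and 50.7, 69.2 and 58.7 in DMSO libraries, and was 2.27-fold higher (1.18 ± 0.31 SE, adjusted p = 0.0487). Its closest relatives did not pass, with 44.3, 77.3 and 45.4 RPKM of Ube2e3 in ASA and 64.9 to 71.1 in DMSO libraries (-0.32 ± 0.25 SE) and a log2 fold change of 0.07 ± 0.16 SE for Ube2e1. The ratio of Ube2e2 to Ube2e3 was 2.29, 2.82 and 2.41 in ASA libraries and 0.714, 1.06 and 0.904 in DMSO libraries. Ube2e2 thus exceeded Ube2e3 in all 3 ASA libraries and, among the DMSO libraries, in replicate 2 alone. Ube2d3 had 229, 406 and 256 RPKM in ASA and 243 to 265 in DMSO libraries, high in ASA replicate 2 alone. Its log2 fold change was 0.17 ± 0.24 SE, and -0.08 without ASA replicate 2.

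Ube2q2, an E2 with a long N-terminal extension, had 36.6, 32.2 and 35.7 RPKM in ASA and 22.5, 20.4 and 18.7 in DMSO libraries, 1.70-fold higher (0.76 ± 0.19 SE, adjusted p = 0.0432). Its paralogue Ube2q1 averaged 130 ± 7.61 RPKM with ASA and 129 ± 4.73 with DMSO (SD, n = 3 each). None of the 5 E2 enzymes that work at the endoplasmic reticulum or extend chains for degradation passed the limma test, with 1 higher and 1 lower at an unadjusted p under 0.05. Ube2j1, a membrane-anchored E2 of the degradation of misfolded secretory proteins, had 151, 230 and 194 RPKM in ASA and 89.2, 131 and 103 in DMSO libraries (0.83 ± 0.23 SE, adjusted p = 0.0563). It missed the threshold by a small margin and passed without ASA replicate 1. Ube2j2, Ube2g1 and Ube2g2 had log2 fold changes of -0.09, -0.35 and -0.18, and Ube2k, which extends chains for proteasomal degradation, had -0.55 ± 0.17 SE (adjusted p = 0.0769). Ube2l3, the E2 of the linear-chain and parkin ligases, had 31.9, 20.1 and 21.7 RPKM in ASA and 49.1, 37.8 and 49.8 in DMSO libraries (-0.91 ± 0.24 SE, adjusted p = 0.0519), from a single listed exon.

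Of the 5 tested deubiquitinases of histones 1 rose, 1 fell and the others did not pass. Usp22, the protease of the SAGA coactivator complex that takes ubiquitin off histones at active genes, had 156, 330 and 200 RPKM in ASA and 95.6, 100 and 88.0 in DMSO libraries. Every ASA library lay above every DMSO library, ASA replicate 2 by the most, and Usp22 was 2.30-fold higher (1.20 ± 0.28 SE, adjusted p = 0.0366). Usp16, which removes ubiquitin from histones before mitosis, had 31.7, 21.6 and 28 RPKM in ASA and 47.3, 47.7 and 48.8 in DMSO libraries, and was 1.79-fold lower (-0.84 ± 0.20 SE, adjusted p = 0.0414). The ratio of Usp22 to Usp16 was 4.94, 15.3 and 7.16 in ASA libraries and 1.80 to 2.1 in DMSO libraries. Of the paralogues that can replace Usp22 in its module, Usp27x had 11.5, 2.33 and 9.25 RPKM in ASA and 4.03 to 5.07 in DMSO libraries (0.48 ± 0.57 SE), low in ASA replicate 2 only, and passed without that library, while Usp51 was under the filter. Usp3 and Usp21, which also act on histones, had 0.33 ± 0.21 and 0.44 ± 0.21 SE and did not pass.

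Of the paralogues Usp4, Usp11 and Usp15, which share a domain layout, Usp11 rose, Usp15 fell and Usp4 did not pass. Usp11, a protease of DNA repair proteins, had 6.70, 11.8 and 9.05 RPKM in ASA and 3.60, 3.50 and 2.86 in DMSO libraries, 2.66-fold higher (1.41 ± 0.31 SE, adjusted p = 0.0331). Usp15, which acts in TGF-beta signalling, had 50.8, 38.8 and 42.1 RPKM in ASA and 101, 63.5 and 90.5 in DMSO libraries, 1.91-fold lower (-0.93 ± 0.23 SE, adjusted p = 0.042). Usp4 had 63.5 to 75.5 RPKM in ASA and 54.7 to 65.3 in DMSO libraries (0.19 ± 0.17 SE). The ratio of Usp11 to Usp15 was 0.132 to 0.304 in ASA libraries and 0.0316 to 0.0551 in DMSO libraries, and Usp15 remained the more abundant in all 6. Of the Usp11 values 6.3% were not whole reads, the highest share among the 13 genes.

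The remaining deubiquitinases past the threshold were Usp43, Usp30 and Usp31. Usp43 had 4.15, 2.89 and 4.57 RPKM in ASA and 7.99, 12.5 and 14.1 in DMSO libraries, 2.90-fold lower (-1.54 ± 0.33 SE, adjusted p = 0.0322). Usp30, anchored in the outer mitochondrial membrane where it opposes the removal of damaged mitochondria, had 31.1, 44.5 and 38.9 RPKM in ASA and 22.2, 21.7 and 20.9 in DMSO libraries, 1.74-fold higher (0.80 ± 0.20 SE, adjusted p = 0.0467). Usp31 had 14.7, 11.4 and 15.0 RPKM in ASA and 7.48, 7.40 and 6.55 in DMSO libraries, 1.89-fold higher (0.92 ± 0.24 SE, adjusted p = 0.0483).

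None of the 4 deubiquitinases that serve the proteasome and free ubiquitin chains passed the limma test, with 2 lower and none higher at an unadjusted p under 0.05. Usp14, which trims chains on the proteasome, had 120, 106 and 114 RPKM in ASA and 186, 131 and 182 in DMSO libraries (-0.54 ± 0.19 SE, adjusted p = 0.109). Usp5, which takes apart unanchored chains, had 117, 36.6 and 81.8 RPKM in ASA and 188, 122 and 153 in DMSO libraries (-1.11 ± 0.41 SE, adjusted p = 0.116). Its lowest value by far was that of ASA replicate 2, and its reads came from 6 listed exons with 769 bases in all. Uchl5, a ubiquitin hydrolase bound to the proteasome, overlapped between the groups (-0.62 ± 0.35 SE, adjusted p = 0.279). So did Usp13, a relative of Usp5, with 10.4, 3.48 and 9.39 RPKM in ASA and 7.32, 7.50 and 7.07 in DMSO libraries (-0.06 ± 0.43 SE), where ASA replicate 2 was the lowest library and the others of its group the highest. Usp1, which reverses the mark that Ube2t sets in crosslink repair, had 19.2, 20.3 and 29.6 RPKM in ASA and 58.3, 27.8 and 46.8 in DMSO libraries (-0.90 ± 0.32 SE, adjusted p = 0.104), with DMSO replicate 2 inside the ASA range. Usp7, which stabilises the ligase Mdm2, had -0.70 ± 0.28 SE and an adjusted p of 0.138, and Usp29 had -1.24 ± 0.44 SE at 0.931 to 2.94 RPKM in ASA and 3.37 to 4.45 in DMSO libraries.

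Other members with high positive values did not pass either. Usp20 had 68.8, 81.6 and 76.2 RPKM in ASA and 44.5, 55.6 and 46.9 in DMSO libraries (0.63 ± 0.18 SE, adjusted p = 0.06). Usp18, the protease that removes ISG15 and is induced by interferon, had 7.15, 5.80 and 12 RPKM in ASA and 3.72, 4 and 5.67 in DMSO libraries (0.84 ± 0.35 SE, adjusted p = 0.158), while Isg15 itself had 11.9 ± 5.32 RPKM with ASA and 18.3 ± 4.15 with DMSO (SD, n = 3 each). Otud1 had 2.01, 7.49 and 5.04 RPKM in ASA and 1.47 to 2.23 in DMSO libraries, and only ASA replicate 1 lay within the DMSO range. None of the 8 tested OTU family genes passed the limma test, and none had an unadjusted p under 0.05. Usp8 had 29.7, 17.3 and 35 RPKM in ASA and 27.0 to 28.8 in DMSO libraries, with a log2 fold change of -0.10 ± 0.28 SE.

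The exons of the changed genes were compared with each other, as a description. These genes were called on sums of the same exons, so agreement in sign or separation is no independent support for the calls. The share of all exons without overlap was not computed. Of all tested genes, 38.7% did not overlap in either direction. In Usp22 all 13 listed exons were higher, with log2 fold changes of 0.87 to 1.43 and no overlap between the groups in any. All 6 exons of Ube2t were lower without overlap (-2.24 to -1.75), as were 24 of 25 exons of Uba1 without overlap and all 25 in direction (-1.28 to -0.55). In Usp16, Usp43, Usp11 and Usp31 every listed exon also had the sign of the gene, without overlap in 16 of 17, 12 of 16, 18 of 21 and 11 of 16 of them. In Usp30 13 of 14 exons had it (12 without overlap), in Ube2q2 8 of 9 (6) and in Usp15 21 of 22 (17). The exceptions were exon 1 of Usp30 (-0.03), exon 5 of Ube2q2 (-0.20) and exon 6 of Usp15 (0.42), counted 5′ to 3′ among the listed exons. At each of the 3, ASA replicate 2 differed from the other ASA libraries, with 7.79 RPKM against 25.8 and 31 for Usp30, 5.23 against 30.4 and 24.6 for Ube2q2, and 18.7 against 1.93 and 1.29 for Usp15. Ube2n, Ube2s and Ube2e2 had 3 listed exons each, all with the sign of the gene, without overlap in 2, 2 and 3 of them. Exon 1 overlapped in Ube2n and Ube2s, where ASA replicate 2 (18.5 and 90.4 RPKM) lay above every DMSO library.

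**Figure D4:**
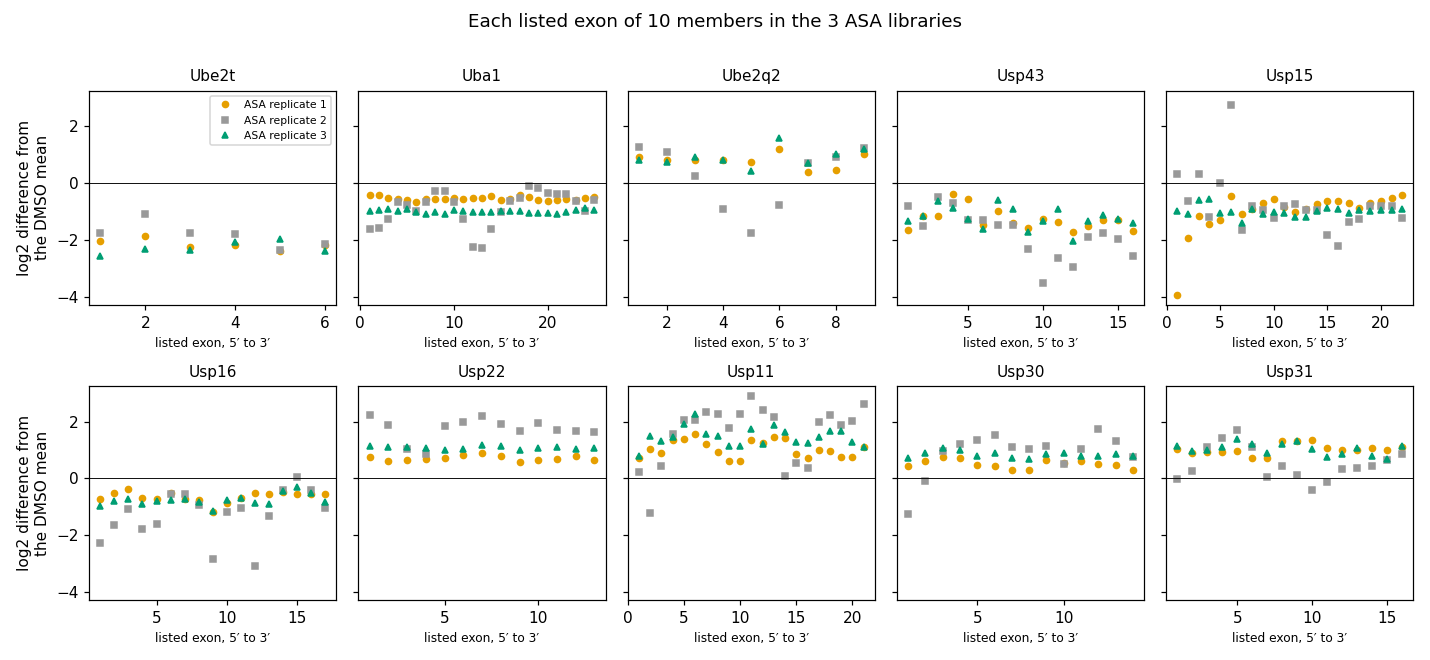
Log2 difference from the DMSO mean, on log2(RPKM + 0.1), of each listed exon of 10 changed genes in ASA replicates 1 (circles), 2 (squares) and 3 (triangles), with exons ordered 5′ to 3′ as listed. Replicates 1 and 3 run close together along most genes, while replicate 2 scatters, as at exon 6 of Usp15 and exon 5 of Ube2q2.

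Usp15 was unevenly covered in all libraries. Its first 7 listed exons (770 bases) had 4.02, 8.23 and 5.43 RPKM in ASA and 13.7, 8.11 and 11 in DMSO libraries. Exons 8 to 22 (2173 bases) had 67.4, 49.7 and 55.1 RPKM in ASA and 131, 83.1 and 119 in DMSO libraries. The split was chosen after the exon values were seen. In exons 8 to 22 every ASA library lay below every DMSO library, while in the first 7 ASA replicate 2 reached the level of DMSO replicate 2.

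In the genome build Rnor_6.0, Ube2t spans 51795867 to 51801160 of chromosome 13 (ENSRNOG00000005038) from its first to its last listed exon, and Ube2s 72581158 to 72584337 of chromosome 1 (ENSRNOG00000016930). Ube2n spans 36610486 to 36638889 of chromosome 7 (ENSRNOG00000058053) and Usp22 47429204 to 47453298 of chromosome 10 (ENSRNOG00000032492). Usp11 and Uba1 lie close together on chromosome X, at 1688447 to 1703982 (ENSRNOG00000009049) and 1723370 to 1737107 (ENSRNOG00000019164), both on the minus strand as listed. Between their listed exons lie 19388 bases with 1 other gene of the table, Cdk16. In this stretch Usp11 was higher and Uba1 lower with ASA. RefSeq (assembly GRCr8) lists 55 pseudogenes under E1 and E2 symbols and 4 under deubiquitinase symbols, among them 9 of Ube2n and 4 each of Ube2c and Ube2s. Reads of such copies may be assigned to either, so the values of these genes are uncertain to that extent. All values of Ube2n, Ube2c and Ube2s were whole reads, which does not show from which copy the reads came.

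None of the 13 calls held in all 6 fits that left out a library. All 13 remained without ASA replicate 2, and also without both libraries numbered 2. Without ASA replicate 1, Usp31 and Ube2q2 lost theirs, while 7.86% of all genes were higher and 8.30% lower (16.2% in all). Without DMSO replicate 2 only Ube2t, Ube2s and Usp15 kept theirs, and 2.50% of all genes were higher and 2.55% lower (5.06% in all). All 13 were lost without ASA replicate 3, when limma called 0.00% of all genes, and likewise without DMSO replicate 3 (0.00%). The same held without DMSO replicate 1 (0.392% of all genes higher and 0.336% lower, 0.728% in all). At an unadjusted limma p under 0.05 without ASA replicate 3, 3 of 37 E1 and E2 enzymes were higher and 7 lower. Of the 57 deubiquitinases 5 were higher and 7 lower, beside 1426 higher and 1498 lower of all 12490 genes. Without DMSO replicate 1, and again without DMSO replicate 3, the E1 and E2 counts were 3 higher and 5 lower. Those of the deubiquitinases were 5 higher and 3 lower. Of all genes, 1376 of 12499 were higher and 1193 lower without DMSO replicate 1. The numbers without DMSO replicate 3 were 1222 and 1120 of 12512. Without ASA replicate 2, 8 of the 37 E1 and E2 enzymes were lower and 2 higher (21.6% and 5.41%, beside 8.07% and 12.8% of all genes, 20.9% in all). Of the deubiquitinases 3 were then lower and 7 higher (5.26% and 12.3%). The genes added there were Ube2c, Ube2e3, Ube2l3 and Ube2v2, all lower, and Otud7b, Usp20 and Usp27x, all higher.

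The rest of the ubiquitin system was followed in 8 lists. Of 11 tested precursors of ubiquitin and its relatives 1 fell (9.09%, beside 4.99% of all genes) and none rose, with a median log2 fold change of 0.13. Nedd8, which did not pass, had 386 ± 140 RPKM with ASA and 764 ± 111 with DMSO (SD, n = 3 each, adjusted p = 0.0642). Of 16 anaphase-promoting complex genes 2 fell (12.5%, beside 4.99% of all genes) and none rose, with a median log2 fold change of -0.46, beside -0.06 for all genes. Its activator Cdc20 was 5.07-fold lower (20 ± 2.84 RPKM in ASA and 114 ± 59.8 in DMSO, adjusted p = 0.0211), and the scaffold subunit Cdc27 1.62-fold lower (adjusted p = 0.0412). Of 34 subunits of cullin-RING ligases 2 fell (5.88%, near the 4.99% of all genes) and none rose (median -0.26), namely the adaptor Eloc, 2.51-fold, and Fbxo5, an inhibitor of the anaphase-promoting complex, 3.92-fold. At an unadjusted limma p under 0.05, 11 of the 34 were lower (32.4%, beside 14.6% of all genes) and 0 higher (beside 15.5%). The ASA values lay wholly below the DMSO values for 11 of them (32.4%, beside 18.8% of all genes). The list as such was not tested.

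The other ligases and proteases showed few changes. Of 57 RING and RBR ligases 3 rose (5.26%, beside 6.21% of all genes) and none fell (median 0.05). Among them were Rnf14, 2.06-fold higher (adjusted p = 0.0309), and Marchf6, a ligase of the endoplasmic reticulum, 1.90-fold higher (137 ± 10.1 RPKM in ASA and 72.1 ± 6.12 in DMSO, adjusted p = 0.0209). Of 25 HECT ligases none passed the limma test, with 2 higher and 3 lower at an unadjusted p under 0.05 (median -0.03). Of 25 genes listed under other deubiquitinase families, not all of which encode active deubiquitinases, only Stambpl1 passed. Stambpl1, which acts on endosomes, was 1.81-fold higher (42.0 ± 8.73 RPKM in ASA and 22.9 ± 2.1 in DMSO, adjusted p = 0.0483). The proteasomal protease Psmd14 had 100 ± 40.7 RPKM in ASA and 202 ± 34.7 in DMSO libraries (adjusted p = 0.0671). Among 10 proteases of SUMO, NEDD8 and UFM1 and 10 further genes of E1 or E2 type, mostly for ubiquitin-like proteins, none passed the limma test. At an unadjusted p under 0.05, 1 was higher and 1 lower in each list.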

How the data were processed

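The samples, their groups and the comparison (ASA against DMSO, 3 libraries each) were taken from the labels. The libraries were directional and made from polyadenylated RNA, per the labels' protocols. From the submitters' processing notes come the build Rnor_6.0 and the tools TopHat2 2.1.0, Bowtie2, cutadapt 1.14, Trim Galore 0.4.1 and edgeR 3.26.8, with no role given. How reads were counted, with which annotation and whether by strand, is not stated in the labels or the file, so reads of overlapping antisense genes cannot be told apart.

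The authors deposited log2 RPKM values for 118147 exons of 12801 genes. The values carried an added constant of 0.002915 reads per 1000000 in every library. Without it, 95.7% to 96.8% of values were whole reads within 0.02 read. Every row had over 10 reads in at least 4 libraries.

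Reads were summed per gene over listed exons and tested on log2(RPKM + 0.1) with limma 3.58.1 under R 4.3.3 (mean-variance trend, no covariates, both directions). Genes with a mean of at least 0.5 RPKM were tested, and p-values were adjusted by Benjamini-Hochberg over all of them at 0.05. Fold changes are on that log scale and understate the change of low genes. The deposited values are not counts, so no count test was the main result, and voom on the recovered reads was an alternative. The fit was run on simulated data with known changes, independent noise and, for each gene, the same spread in every library. The real libraries differ in spread, so that run does not show how far the calls here can be trusted. Named are members past the threshold, the 6 highest and 6 lowest fold changes and the 5 highest and lowest levels of each class, E1 enzymes, members for ubiquitin-like proteins, and up to 4 genes per list by p. Some genes that the rule names are not reported here. Other members complete a family or role and were picked with their values in view. The members and lists were chosen with earlier results of these data known. Alternatives were other pseudocounts, filters, scaling, variance models, gene values and member lists, and each library left out.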

Additional observations from a re-analysis of the deposited data

How the results depend on the processing

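No paired analysis was possible because the labels give no replicate numbers that the groups share. Leaving out each of the 6 libraries in turn, genes called higher numbered 0 to 1608 and lower 0 to 1036, beside 776 and 624. For E1 and E2 enzymes called higher the range was 0 to 2 and lower 0 to 8, and for deubiquitinases 0 to 7 and 0 to 5. The E1 and E2 median ran from -0.22 to -0.09, the deubiquitinase median from -0.10 to 0.10 and their difference from -0.24 to -0.05, beside -0.12. Without both libraries numbered 2, genes called numbered 1733 higher and 1416 lower, E1 and E2 enzymes 10 lower, and deubiquitinases 7 higher and 6 lower (median 0.09, difference of medians -0.25). Library quality weights gave 5788 and 4987 genes, 10 and 21 E1 and E2 enzymes, 31 and 15 deubiquitinases, a deubiquitinase median of 0.13, a difference of -0.28 and a median of all genes of 0.06, beside -0.06. Their estimate stopped before it converged and put weights of 16.3 and 31.8 on ASA replicate 3 and DMSO replicate 3, against at most 0.538 elsewhere, so these counts rest largely on 1 library per group.

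E1 and E2 enzymes called higher numbered 1 with a pseudocount of 0.01 or median-ratio scaling, and 0 without a variance trend, with voom on the recovered reads (limma) or with the median exon as the gene value, where 2 were lower. Deubiquitinases called higher numbered 2 with median-ratio scaling, and 2 with 1 lower without a trend. Ube2e2 lost its call under those 5 settings, Uba1, Usp22 and Usp30 under scaling and the missing trend, and Uba1 also with the median exon. Calls were also lost for Ube2q2 without a trend, with voom and with the median exon, and for Usp16 without a trend and with the median exon. Usp15 lost its call without a trend, Usp31 without a filter and with the median exon, and Ube2n with the median exon. The cause of these losses was not tested. Of the 13 calls, 9 remained under scaling, 6 without a trend, 11 with voom, 7 with the median exon, 12 with a pseudocount of 0.01 or no filter, and 13 with a pseudocount of 1, a filter of 2 RPKM or whole-read exons only. Members without an active enzyme had no call to lose, so leaving them out tests nothing about the counts.

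Signs changed only for members that did not pass with all libraries and the main settings. The members given below are not all of them. Usp42, for one, was at -0.11 with all libraries and 0.13 without ASA replicate 2. With quality weights Ube2d3 was at -0.0045, Ube2e1 at -0.04, and Uchl5 (0.14), Usp8 (0.37), Usp13 (0.40) and Usp50 (0.60) turned positive and passed. Without both libraries numbered 2 Ube2d3 was at -0.11, Ube2q2l at 0.12, Uchl1 at 0.03, Usp8 at 0.21, Usp13 at 0.45 and Usp50 at 0.33. Ube2q1 was at -0.02 with the median exon and -0.04 with whole-read exons. With a single library left out Otud7b ran from -0.18 to 0.72, Ube2q1 from -0.01 to 0.06, Usp8 from -0.31 to 0.20, Usp13 from -0.34 to 0.43, Uba6 from -0.05 to 0.19, Ube2d3 from -0.08 to 0.34, Ube2q2l from -0.67 to -0.02, Ube2ql1 from -0.06 to 0.28, Uchl1 from -0.19 to 0.03 and Usp50 from -1.32 to 0.30. At a mean of 23 reads per library, Usp51 is the member that depth limits most.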
